A study of Mus musculus with 18 samples.

Results

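Retention of short introns, of at most 300 nucleotides (nt), was measured by RNA-seq in mouse embryonic fibroblasts (MEFs) undergoing reprogramming towards pluripotency. The deposited table of percent spliced in (PSI) held 34005 intron retention events of this length. The 20628 of them with a usable coverage score in all 18 libraries are described here, out of 105593 introns of any length with such coverage. They lie in 5860 genes, of which 2245 had 1 short intron and 3615 had at least 2, with a median of 2 and a maximum of 60 in *Lama5*, a laminin chain. For an intron, PSI is the percent of transcripts that keep it, estimated from reads that cross its 2 exon-intron borders and reads that join the flanking exons.

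The MEFs of all 9 groups carried a doxycycline-inducible cassette of OCT4, SOX2, KLF4, and MYC (OSKM, labelled Collagen-OKSM) and the M2rtta transactivator, and each group had 2 libraries. In the knockdown (KD) dataset, non-infected cells (NI) at day 0 were compared with day 12 cells infected with lentiviruses carrying a scrambled shRNA (shSCR), an shRNA against the cleavage and polyadenylation endonuclease CPSF3 (shCPSF3#1 or shCPSF3#2), or one against hnRNP UL1 (shUL1#1 or shUL1#2). In the overexpression (OE) dataset, NI cells at day 0 were compared with day 12 cells infected with a retrovirus that was empty (Empty) or expressed T7-tagged TIA1 (T7-TIA1). Infected cells were sorted by a GFP reporter and grown with doxycycline on irradiated feeder MEFs, so that RNA of feeder cells and of cells that did not reprogram cannot be told apart from that of reprogramming cells. One field of the labels gives another day for the shUL1#2 and the OE NI libraries than their titles do, and the titles were followed. The labels do not say that the 2 libraries of a group came from separate cultures, and p-values therefore measure the spread between these libraries, which may be technical.

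The spliceosome can pair the splice sites of a short intron directly across it, and an intron that it does not remove stays in the polyadenylated transcript. Retained transcripts can stay in the nucleus as detained introns, awaiting splicing or decay, or reach the cytoplasm, where a stop codon in the intron can send them to nonsense-mediated decay. Splicing factors of the SR and hnRNP families and the CLK kinases are known to be controlled in this way, through retained introns or poison exons of their own transcripts. TIA1 is an RNA-binding protein with a preference for runs of uridine, and it acts in splice site choice by way of the U1 snRNP.

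Sequences were available for the 3511 short introns (17.0%) that an annotated exon of a GENCODE M21 transcript spans, and 5 that the results below turn on are given here, in mm10 and 5′ to 3′ on the strand of the gene. Capitals mark the first 2 and the last 2 bases of the intron and the first stop codon in the reading frame of the upstream exon. *Srsf1* encodes an SR protein, *Tmem208* a protein of the endoplasmic reticulum membrane, *Clk1* a kinase of SR proteins, *Hnrnpl* an hnRNP, and *Tia1* the factor overexpressed in the OE dataset.
*Srsf1* intron 3 of 4, chr11:88049216-88049411, plus strand: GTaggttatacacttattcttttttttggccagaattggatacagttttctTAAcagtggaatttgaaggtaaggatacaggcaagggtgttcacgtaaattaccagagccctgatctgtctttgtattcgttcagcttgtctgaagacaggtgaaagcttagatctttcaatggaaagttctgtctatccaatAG
*Tmem208* intron 4 of 5, chr8:105328459-105328607, plus strand: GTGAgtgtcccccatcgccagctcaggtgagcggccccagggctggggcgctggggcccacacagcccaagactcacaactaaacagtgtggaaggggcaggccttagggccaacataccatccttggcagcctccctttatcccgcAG
*Clk1* intron 6 of 12, chr1:58417180-58417266, minus strand: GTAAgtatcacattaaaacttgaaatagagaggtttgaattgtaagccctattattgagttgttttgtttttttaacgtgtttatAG
*Hnrnpl* intron 8 of 13, chr7:28818533-28818643, plus strand: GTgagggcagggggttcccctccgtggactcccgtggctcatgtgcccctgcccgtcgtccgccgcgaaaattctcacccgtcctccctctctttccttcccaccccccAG
*Tia1* intron 4 of 12, chr6:86418933-86419100, plus strand: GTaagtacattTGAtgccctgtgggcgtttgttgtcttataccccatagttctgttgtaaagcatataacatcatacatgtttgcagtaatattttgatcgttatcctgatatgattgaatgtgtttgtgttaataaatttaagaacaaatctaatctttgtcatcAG
The stop starts at base 52 of the *Srsf1* intron, base 2 of the *Tmem208* and *Clk1* introns, and base 12 of the *Tia1* intron. The *Hnrnpl* intron has a length of 111 nt, a multiple of 3, and holds no stop in that frame. Base composition ranged from 27.6% G and C in the *Clk1* intron, over 32.1% in *Tia1*, 38.3% in *Srsf1*, and 63.8% in *Tmem208*, to 67.6% in *Hnrnpl*.

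Depth was even, with 98882289 to 109047542 reads on the listed genes per library, and the median short intron was covered by 233 to 294 reads. In scaled CPM (read counts divided by an adjusted size of their library), *Cpsf3* was at 86.7 and 118 in shSCR against 38.6 to 77.1 in the 4 shCPSF3 libraries, *Hnrnpul1* at 156 and 185 in shSCR against 38.7 to 85.8 in the 4 shUL1 libraries, and *Tia1* at 77.0 and 85.6 in Empty against 469 and 613 in T7-TIA1. Of 16 fibroblast markers, 13 were listed in the KD dataset, with a summed level of 20878 to 24496 in NI, 12785 to 16341 in shSCR, and 23404 to 42625 in the knockdowns, and 12 in the OE dataset, with 22507 to 51678 in NI and 10468 to 14154 at day 12. Of 22 epithelial and pluripotency markers, *Krt8*, *Krt18*, and *Krt19* were listed in the KD dataset, with a summed level of 49.9 to 62.4 in NI, 365 to 627 in shSCR, 46.2 to 247 in shCPSF3, and 85.7 to 276 in shUL1, where the knockdown libraries all lay below shSCR. In the OE dataset only *Krt19* was listed, at 15.3 to 28.0 in NI, 31.4 to 43.2 in Empty, and 39.9 to 81.8 in T7-TIA1. In these bulk libraries, fewer cells of a type and less RNA per cell cannot be told apart, and the part of cell composition in the results below was not tested.

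Most short introns were spliced almost completely in every group. Over the 18 libraries the median of their mean PSI was 1.1%, with quartiles of 0.280% and 3.49%. Of the 20628 introns, 9901 had a mean PSI under 1% and 378 had a PSI of 0 in every library. At the other end, 1680 (8.14%), in 1035 genes, had a mean PSI of at least 10%, 119 of at least 50%, and 40 of at least 90%. The 8 named as highest were at 100% in all libraries and belonged to *9130221H12Rik*, *Gm10110*, *Gm26905*, *Gm28119*, *Gm28268*, *Gm6665* (2 introns), and *Pacsin2* (intron 11 of 11, in the 3′ UTR), so that the flanking exons were never seen joined there.

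Retention of short introns was shallow but present in every group, and the groups overlapped. The median PSI over the short introns was 0.99% and 0.81% in the KD NI libraries, 1.18% and 1.06% in shSCR, 0.86% and 1.11% in shCPSF3#1, 0.87% and 1.13% in shCPSF3#2, 1.04% and 1.17% in shUL1#1, and 0.77% and 1.16% in shUL1#2. It was 0.89% and 0.9% in the OE NI libraries, 1.17% and 0.84% in Empty, and 1.14% and 1.09% in T7-TIA1. Both shSCR libraries lay above both NI libraries of the KD dataset, while the 2 shUL1#2 libraries alone spanned nearly the whole range. In group means, retention was 0.9% ± 0.127 (SD, n = 2) in NI, 1.12% ± 0.0849 in shSCR, 0.985% ± 0.177 and 1% ± 0.184 in shCPSF3#1 and #2, 1.11% ± 0.0919 and 0.965% ± 0.276 in shUL1#1 and #2, 0.895% ± 0.00707 in OE NI, 1.01% ± 0.233 in Empty, and 1.12% ± 0.0354 in T7-TIA1. No test was made of these medians. The share of short introns at 10% or more ranged from 6.94% to 9.58% of introns per library. The median PSI was 0.44% to 0.78% for introns of all lengths and 0.32% to 0.61% for the 59935 introns longer than 1000 nt, and short introns lay above long ones in 18 of 18 libraries.

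**Figure D1:**
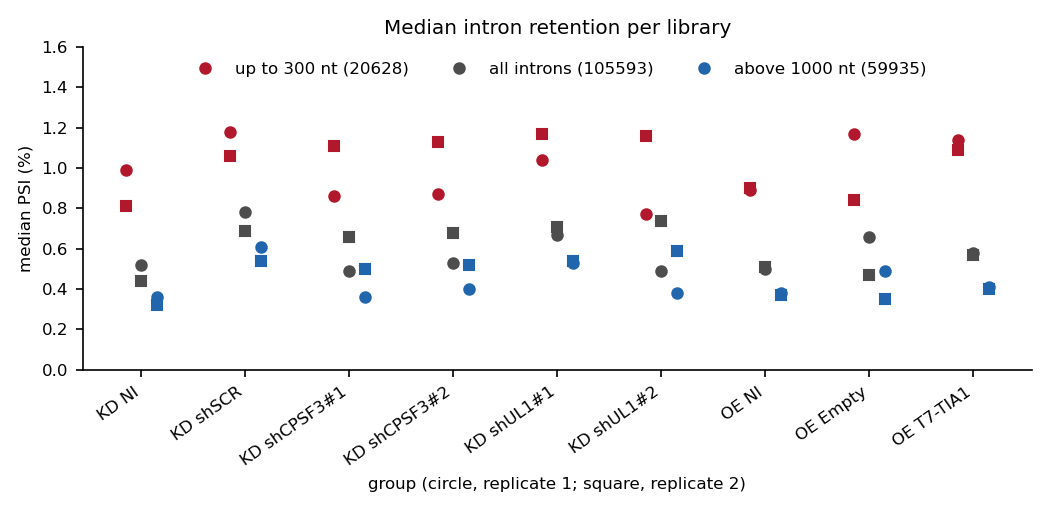
Median PSI (%, vertical axis) of introns in each of the 18 libraries, by group along the horizontal axis; circles are replicate 1 and squares replicate 2. Red points are the 20628 short introns, grey the 105593 introns of all lengths, and blue the 59935 introns longer than 1000 nt. The red points sit between 0.77% and 1.18%, above the grey and the blue ones in every library.

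Retention differed with the place of a short intron in the gene and, for the shortest introns, with its length. By length, the median of the mean PSI was 3.49% for 611 introns of 50 to 75 nt and between 0.893% and 1.19% for the bins from 76 to 300 nt, which held 2485 to 6030 introns each. A mean PSI of at least 10% was met by 18.7% of introns of 50 to 75 nt, 5.75% of those of 76 to 100 nt, and 10.6% of those of 201 to 250 nt. The 7 introns under 50 nt had a median of 99.95%, and the spliceosome rarely removes introns this short. Introns in coding sequence numbered 20167, with a median of 1.07% and 7.47% of them at 10% or more. The 285 introns in 5′ UTRs had a median of 4.47% with 33.7% at 10% or more, the 64 in 3′ UTRs a median of 2.56% with 26.6%, and the 111 in non-coding transcripts a median of 11.1% with 54.1%.

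Introns that an annotated exon spans, meaning that the annotation already holds a retained form, were retained more than the others. Their median was 4.42% (3511 introns, 26.7% at 10% or more), against 0.828% for the other 17117 (4.34% at 10% or more). Position was taken only for introns in coding sequence, which leaves out those of UTRs and non-coding transcripts. Of these coding introns, 597 first introns had a median of 1.97%, 15709 internal introns 0.969%, 1988 introns next to the last 1.52%, and 1851 last introns 1.20%. Coding introns whose length was a multiple of 3 numbered 6544, with a median of 1.06%, and the other reading frames gave 1.05% (6807 introns) and 1.08% (6816 introns).

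Among the introns with a sequence, nearly all began with GT and ended with AG. GT and AG ended 3471 of 3511, GC and AG 29, and AT and AC, the ends typical of a class of minor introns, 3. Their median content of G and C was 55.0%, and in 4 equal groups by that content, from the lowest, the median PSI was 2.88%, 5.11%, 4.77%, and 5.15%. Of the 3331 with sequence in coding regions, 2655 (79.7%) held an in-frame stop, as the *Srsf1*, *Tmem208*, *Clk1*, and *Tia1* introns above do. A further 190 (5.70%) were a multiple of 3 without one, as the *Hnrnpl* intron is. The median PSI was 4.34% with a stop and 4.05% for introns that kept the frame open, with 25.5% and 25.3% at 10% or more, a difference that was not tested. Since these sequences come from annotated retained forms, the shares describe those introns and not short introns in general.

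**Figure D2:**
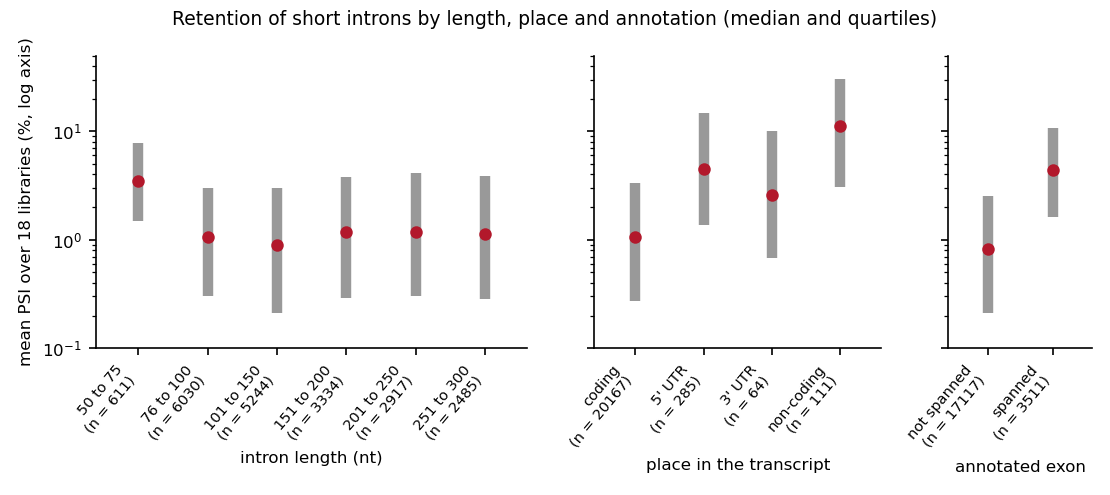
Mean PSI over the 18 libraries (%, vertical log axis) of short introns by length, by place in the transcript, and by whether an annotated exon spans them; points are medians and bars reach from the lower to the upper quartile. Introns of 50 to 75 nt (median 3.49%), of 5′ UTRs (4.47%), of non-coding transcripts (11.1%), and spanned by an exon (4.42%) lie above the 20167 coding introns (1.07%).

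At day 12 with the scrambled shRNA, more short introns rose than fell in retention by the reads. The first of 2 criteria, the PSI rule, asked for a difference of at least 10 between group means and a gap of at least 5 between the nearest libraries, and involves no test. By it, 324 short introns differed between shSCR and NI, 159 higher (0.771% of 20628) and 165 lower (0.800%), against 0.97% higher and 0.355% lower of all 105593 introns. The second, a two-sided *limma* test of log2 (retained reads / spliced reads) with Benjamini-Hochberg adjustment over all splicing events at an adjusted p under 0.05, could be run on 11509 short introns. It called 754 in 549 genes, of which 548 rose (4.76%) and 206 fell (1.79%), against 6.67% and 1.06% of all introns tested. The median difference was 0.18 log2 over short introns, 0.36 over all introns tested, and 0.43 over introns longer than 1000 nt. With each library centred on the median of all introns, 217 short introns rose and 432 fell, so that the lean towards rises was turned, and a test of PSI in percent called 242 that rose and 195 that fell. With 1 library left out, the lean was weak without NI replicate 2 or shSCR replicate 1. It remained without NI replicate 1 or shSCR replicate 2. Most changes were small: the median absolute ∆PSI of the called introns was 4.24, 223 moved by less than 2, and 183 also passed the PSI rule. The count of 754 fell to 435 without NI replicate 1, 200 without NI replicate 2, 208 without shSCR replicate 1, and 281 without shSCR replicate 2.

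Among the rises, that of *Srsf1* intron 3 rested on 1675 to 4191 reads per library. Its PSI was 6.47% and 5.97% in the NI libraries, 41.8% and 30.3% in shSCR, 20.7% and 19.8% in shCPSF3#1, 18.1% and 17.1% in shCPSF3#2, 26.4% and 21.8% in shUL1#1, and 20.8% and 18.2% in shUL1#2. Every day 12 library of the KD dataset lay above both NI libraries, and shSCR above all others. In the OE dataset PSI was 11.5% and 11.0% in NI, 21.4% and 12.4% in Empty, and 13.4% and 14.2% in T7-TIA1. Between shSCR and NI the log2 ratio rose by 3.07 ± 0.23 (SE, *limma*, adjusted p = 1.68e-05). Per 100000000 reads on listed genes, retained reads went from a mean of 193 to 949 and spliced reads from 2927 to 1762, while *Srsf1* expression differed by −0.38 log2 (adjusted p = 0.413). A retained *Srsf1* transcript meets the stop at base 52 of the intron.

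*Tmem208* intron 4 and 2 introns of *Cdan1* also rose between NI and shSCR. PSI of the *Tmem208* intron was 15.2% and 12.1% in NI, 41.3% and 41.9% in shSCR, 21.4% and 20.7% in shCPSF3#1, 26.9% and 27.3% in shCPSF3#2, 29.7% and 33.4% in shUL1#1, and 23.1% and 25.1% in shUL1#2, with 19.1% and 21.4% in OE NI, 31.9% and 27.1% in Empty, and 22.9% and 30.5% in T7-TIA1. It rose by 2.17 ± 0.20 log2 between shSCR and NI (adjusted p = 7.93e-05), and its gene fell by 0.52 log2 (adjusted p = 0.0047). *Cdan1*, which encodes codanin 1, a binding partner of a histone chaperone, had intron 2 (199 nt) at 23.6% and 24.5% in NI and 64.2% and 69% in shSCR (log2 difference 2.54 ± 0.38, adjusted p = 0.00171), on 22 to 107 reads. Its intron 3 went from 9.83% and 10.5% to 33.9% and 41% (2.30 log2, adjusted p = 0.00093). In both introns the shSCR libraries lay far above the NI libraries.

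The falls between NI and shSCR included introns that were mostly retained at day 0. *Cfp* intron 1, in the gene of the complement regulator properdin, was at 87.1% and 100% in NI and 23.5% and 21% in shSCR, a fall of 5.15 ± 1.13 log2 (*limma*, adjusted p = 0.0168). *Cd68* intron 2, in the gene of a macrophage lysosomal protein, went from 74.5% and 42.5% to 11.3% and 11.4% (log2 difference −3.76, adjusted p = 0.00433), and its intron 3 from 53.9% and 45.7% to 8.47% and 8.32%. Expression of both genes rose, by 1.30 log2 for *Cfp* (adjusted p = 0.0156) and by 2.21 log2 for *Cd68* (adjusted p = 0.000555). *Slc9a5* intron 6, in a gene of a sodium-proton exchanger, was at 84% and 72.7% in NI and 37.1% and 39.5% in shSCR (−2.57 ± 0.39 log2, adjusted p = 0.00225), with host expression lower by 0.84 log2 (adjusted p = 0.0149). Its retained reads did fall, from 102 to 30.8, and its spliced reads went from 27.6 to 49.5.

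Introns of the splicing regulators *Clk1* and *Hnrnpl* fell, and the *Clk1* intron did so alongside its gene's rise. *Clk1* intron 6 was at 31.5% and 27.4% in NI, 11.2% and 8.84% in shSCR, and 9.16% to 16.1% in the other day 12 libraries of the KD dataset, all below NI. The log2 ratio fell by 1.91 ± 0.28 (adjusted p = 0.00182) and *Clk1* expression rose by 1.42 log2 (adjusted p = 0.000354). In the OE dataset the order differed, with 8.44% and 11.7% in NI, 22.8% and 11.5% in Empty, and 21.7% and 15.1% in T7-TIA1 (Empty against NI 0.79 log2, adjusted p = 0.416). *Hnrnpl* intron 8, the frame-preserving one, was at 27.1% and 26.4% in NI, 15.4% and 15.2% in shSCR, and 17.8% to 25% in the knockdowns. It fell by 1.02 ± 0.17 log2 between NI and shSCR (adjusted p = 0.00392), and *Hnrnpl* expression differed by −0.13 log2 (adjusted p = 0.698). In the OE dataset its libraries overlapped, from 20.6% to 26.5%.

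**Figure D3:**
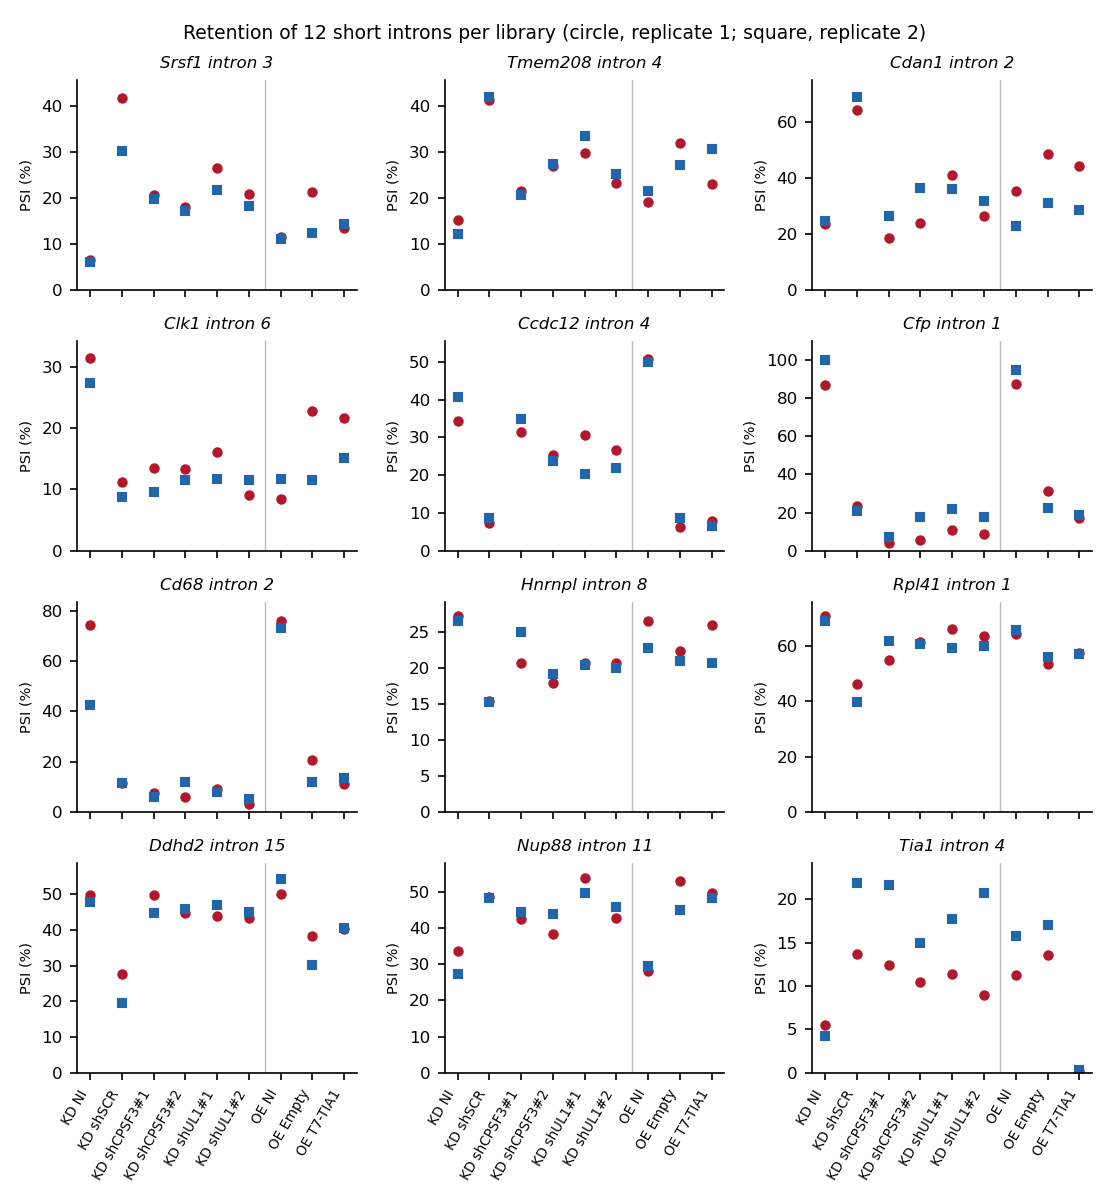
PSI (%, vertical axis) of 12 short introns in each of the 18 libraries, by group along the horizontal axis, with a grey line between the KD and the OE datasets; each point is 1 library. *Srsf1* intron 3 sits at 6.47% and 5.97% in NI and at 41.8% and 30.3% in shSCR, *Ccdc12* intron 4 falls in shSCR and Empty and lies at 20.3% to 34.8% in the knockdowns, and *Tia1* intron 4 is at 0.18% and 0.37% in T7-TIA1.

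Where several introns of 1 gene were called, they mostly moved together. Of the 549 genes with called introns between shSCR and NI, 114 had at least 2, and in 107 of these all went in one direction. The matching count for introns of all lengths is not given here. *Thoc6* and *Brd2* were chosen as examples after their values were seen. *Thoc6*, a subunit of the THO complex of mRNA export, had 10 of 11 tested introns fall, by 1.62 to 3.15 log2 (*limma*, adjusted p = 0.00116 to 0.0395). The mean PSI of its 12 short introns was 23.7% and 16.5% in NI, 7.61% and 6.45% in shSCR, and 6.77% to 12.4% in the knockdowns, and 17.9% and 12.3% in OE NI, 6.51% and 6.19% in Empty, and 9.36% and 7.50% in T7-TIA1. Within each dataset both NI libraries lay above every day 12 library, and *Thoc6* expression differed by 0.59 log2 in the KD dataset (adjusted p = 0.151) and rose by 0.75 in the OE dataset (adjusted p = 0.00426). *Brd2*, a bromodomain protein that binds acetylated histones, had 6 of 7 short introns rise, by 1.08 to 2.13 log2 (adjusted p = 0.00198 to 0.0263). The mean PSI of its introns was 2.50% and 1.78% in NI, 5.53% and 5.57% in shSCR, and 1.87% to 2.56% in the shCPSF3 libraries, and its expression differed by −0.18 log2 (adjusted p = 0.247).

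Between Empty and NI, the same comparison of day 12 with day 0 in the OE dataset, fewer introns passed. The PSI rule gave 169, 70 higher (0.339%) and 99 lower (0.480%), against 0.322% and 0.284% of all introns. The read test, on 8709 short introns, called 46, of which 29 rose (0.333%) and 17 fell (0.195%), against 0.445% and 0.197% of all introns tested. The median difference was 0.13 log2 over short introns, 0.13 over all, and 0.11 over those longer than 1000 nt, and after centring 19 rose and 15 fell. A test of PSI in percent called 1, which fell, while introns fitted alone gave 186 and a replicate block 109. The count of 46 was 10 without NI replicate 1 and 5 without Empty replicate 1. *Mylpf* intron 2, in the gene of a fast skeletal myosin light chain, was at 0% and 1.05% in NI and 16.6% and 17.6% in Empty (3.25 log2, adjusted p = 0.00815), and at 0% and 1.49% against 21.6% and 19.8% in the KD dataset (2.47 log2, adjusted p = 0.0109). *Nup88* intron 11, in the gene of a nuclear pore protein, was at 28.1% and 29.5% in NI, 53% and 45% in Empty, and 49.6% and 48.3% in T7-TIA1 (Empty against NI 1.26 ± 0.25 log2, adjusted p = 0.0445), and rose in the KD dataset from 33.7% and 27.4% to 48.5% and 48.4% (1.08 log2, adjusted p = 0.00878). *Cyb5r1* intron 1 rose in the OE dataset, from 9.31% and 8.58% to 26.7% and 21.1% (1.66 log2, adjusted p = 0.0134). *Pfas* intron 18, in a gene of purine synthesis, did so from 4.04% and 6.46% to 25.4% and 16.2% (2.19 log2, adjusted p = 0.0323).

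The day 12 comparisons of both datasets share no library, and introns past the PSI rule in both mostly had the same sign. They numbered 80, which are 24.7% of the 324 in the KD dataset and 47.3% of the 169 in the OE dataset, and 31 were higher and 48 lower in both. The exception, *Lrrc45* intron 9, is described among the results for a closer look. Of all short introns, 1.57% passed the rule in the KD dataset and 0.819% in the OE dataset. Overlaps among introns of all lengths, by this rule or by reads, are not given here. Nothing particular to short introns can therefore be read from these overlaps. By reads, 29 were called in both, a count that rests on the 46 of the OE dataset, 3.85% of 754 and 63.0% of 46, with 14 that rose and 15 that fell in both. *Ccdc12* intron 4 (171 nt) was one of those that fell. Its PSI was 34.5% and 40.6% in NI against 7.3% and 8.78% in shSCR (−2.73 ± 0.27 log2, adjusted p = 0.000117), and 50.6% and 50% in OE NI against 6.25% and 8.73% in Empty (−3.62 ± 0.25 log2, adjusted p = 0.0002). *Ccdc12* expression differed by −0.47 log2 (adjusted p = 0.0706) and −0.03 log2 (adjusted p = 0.839). *Cfp* intron 1 was at 87.8% and 94.9% in OE NI and 31.5% and 22.5% in Empty (−4.52 log2, adjusted p = 0.00222). *Cd68* intron 2 was at 75.9% and 73.1% in OE NI against 20.5% and 11.8% in Empty (−3.90 log2, adjusted p = 0.00829), and its intron 3 at 51% and 56.2% against 18.1% and 10.1%.

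With CPSF3 knocked down, short introns changed in both directions in similar numbers. The effect was the mean of shCPSF3#1 and shCPSF3#2 against shSCR, and since shSCR is also the day 12 group of the comparison with NI, both comparisons share the shSCR libraries. By the PSI rule 85 short introns differed, 43 higher (0.208%) and 42 lower (0.204%), against 0.112% and 0.258% of all introns. By reads 181 in 161 genes were called, 98 rose (0.852%) and 83 fell (0.721%), against 0.576% and 1.14% of all introns tested. The median difference was −0.09 log2 over short introns, −0.19 over all, and −0.22 over those longer than 1000 nt, and after centring 144 rose and 55 fell, whereas with PSI in percent 42 rose and 89 fell. The 98 that rose had a median PSI of 8.33% in NI, 3.45% in shSCR, 10.5% in shCPSF3#1, and 9.40% in shCPSF3#2. The 83 that fell had 2.4%, 6.15%, 2.05%, and 2.92%. These introns were chosen by their difference from shSCR, so their distance from it is no finding. The count of 181 was 33 and 42 without shSCR replicates 1 and 2, 91 and 100 without shCPSF3#1 replicates 1 and 2, and 93 without shCPSF3#2 replicate 1. With the replicate number as a block it was 301, of which 139 rose and 162 fell.

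Among the rises with CPSF3 knocked down, *Ddhd2* intron 15 lies in the 3′ UTR of the gene of a phospholipase. Its PSI was 49.8% and 47.9% in NI, 27.8% and 19.6% in shSCR, 49.9% and 44.7% in shCPSF3#1, 44.8% and 46% in shCPSF3#2, 43.9% and 47% in shUL1#1, and 43.4% and 45.1% in shUL1#2. The shSCR libraries stood below all others of the KD dataset, by 1.47 ± 0.21 log2 against shCPSF3 (adjusted p = 0.00321) and 1.38 ± 0.21 against shUL1 (adjusted p = 0.00674). *Ccdc12* intron 4 also rose, with 31.4% and 34.8% in shCPSF3#1 and 25.4% and 23.8% in shCPSF3#2 (2.16 log2, adjusted p = 0.000831). *Galt* intron 2, in the gene of a galactose-metabolising enzyme, was at 30.6% and 33.9% in NI, 13% and 14.9% in shSCR, 39.7% and 50.4% in shCPSF3#1, and 37% and 25.9% in shCPSF3#2 (1.89 ± 0.30 log2, adjusted p = 0.00628). *Tmem106a* intron 1, in the 5′ UTR, was at 33.9% and 23.9% in shSCR against 50.9% to 62.6% in shCPSF3 (1.73 ± 0.33 log2, adjusted p = 0.0149), and its gene rose by 0.95 log2 (adjusted p = 0.00985). *Tmem141* intron 1 was at 32.7% and 27.3% in shSCR against 45.2% to 56.9% (1.40 log2, adjusted p = 0.0413).

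Among the falls with CPSF3 knocked down, *Cdan1* intron 2 went from 64.2% and 69% in shSCR to 18.5% and 26.3% in shCPSF3#1 and 23.8% and 36.5% in shCPSF3#2 (−2.34 ± 0.30 log2, adjusted p = 0.00186). *Ints6l* intron 1, in a gene related to the Integrator subunit gene *Ints6*, was at 61.8% and 57.1% in shSCR, 28.4% and 43.7% in shCPSF3#1, and 25.8% and 24.7% in shCPSF3#2 (−1.67 log2, adjusted p = 0.0305). *Glb1l* intron 3 was at 52% and 35.5% in shSCR, 13.9% and 21.9% in shCPSF3#1, and 17.1% and 22.7% in shCPSF3#2 (−1.73 log2, adjusted p = 0.0237), and its gene rose by 1.57 log2 (adjusted p = 0.000803). *Rgl2* intron 3, in the gene of a Ral guanine exchange factor, was at 31.3% and 38.3% in shSCR and fell by 1.35 log2 (adjusted p = 0.013). In each of these introns all 4 shCPSF3 libraries lay below both shSCR libraries. *Tmem208* intron 4 fell by 1.17 log2 (adjusted p = 0.00424) as its gene rose by 0.51 log2 (adjusted p = 0.00747), and 5 of the 7 *Brd2* introns fell, by 1.01 to 1.95 log2.

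With hnRNP UL1 knocked down, fewer short introns changed, and among those called rises outnumbered falls. The shUL1 effect is measured against the same shSCR libraries as that of shCPSF3. By the PSI rule 64 introns differed, 39 higher (0.189%) and 25 lower (0.121%), against 0.1% and 0.185% of all introns. By reads 79 in 70 genes were called, 60 rose (0.521%) and 19 fell (0.165%), against 0.311% and 0.278% of all introns tested. The median difference was −0.05 log2 over short introns, −0.09 over all, and −0.09 over those longer than 1000 nt. After centring, 62 rose and 14 fell, whereas a test of PSI in percent called 17 that rose and 35 that fell. The count of 79 was 13 and 15 without shSCR replicates 1 and 2, 34 and 38 without shUL1#1 replicates 1 and 2, and 32 and 51 without shUL1#2 replicates 1 and 2. The 60 rises had a median PSI of 7.84% in NI, 3.21% in shSCR, 7.91% in shUL1#1, and 9.23% in shUL1#2, and the 19 falls 3.07%, 11.0%, 4.09%, and 3.56%.

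Several introns were named for both knockdowns, whose comparisons share the shSCR libraries. *Ccdc12* intron 4 was at 30.6% and 20.3% in shUL1#1 and 26.6% and 21.8% in shUL1#2 against 7.3% and 8.78% in shSCR (1.85 log2, adjusted p = 0.00332). *Galt* intron 2 was at 44.2% and 39.2% in shUL1#1 and 34.9% and 20.9% in shUL1#2 against 13% and 14.9% (1.64 log2, adjusted p = 0.0206). *Tmem106a* intron 1 rose by 1.70 log2 (adjusted p = 0.0241), with 51.1% to 62.9% in shUL1. Among the falls, *Cdan1* intron 2 was at 41.1% and 36.1% in shUL1#1 and 26.4% and 31.7% in shUL1#2 (−1.93 log2, adjusted p = 0.00774), *Tmem208* intron 4 fell by 0.89 log2 (adjusted p = 0.0277), and *Rgl2* intron 3 by 1.14 log2 (adjusted p = 0.0437). *Per1*, a repressor in the circadian clock, had 13 short introns tested, and its intron 13 was at 25.2% and 24.8% in NI, 20.2% and 7.09% in shSCR, 42.2% and 26.8% in shUL1#1, and 32.9% and 36.4% in shUL1#2 (1.69 log2, adjusted p = 0.0453). The same intron rose in shCPSF3 (1.70 log2, adjusted p = 0.0309). As a gene with several called introns, *Per1* was singled out after its values were seen: 4 of the 13 introns rose in shUL1, by 1.36 to 2.08 log2, and the mean PSI of its short introns was 8.89% and 6.40% in NI, 4.91% and 4.06% in shSCR, and 9.47% to 13.5% in shUL1.

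Between T7-TIA1 and Empty, the read test called a single short intron, in *Tia1* itself. By the PSI rule 37 differed, 30 higher (0.145%) and 7 lower (0.0339%), against 0.0824% and 0.0616% of all introns. This lean towards higher retention was nearly lost with replicate 2 of both groups left out, and remained with replicate 1 left out. By reads, *limma* called 0 that rose, as among all introns (0%), and 1 that fell, against 0.0129% of all introns tested, while 152 short introns had an unadjusted p under 0.05. *Tia1* intron 4 was at 13.6% and 17% in Empty and 0.18% and 0.37% in T7-TIA1 (−6.10 ± 0.76 log2, adjusted p = 0.0274). Per 100000000 reads on listed genes, retained reads were at a mean of 22.6 in Empty and 13.5 in T7-TIA1, and spliced reads at 114 and 4556. The transduced construct is a cDNA without introns, and its reads cannot be told apart from spliced reads of the endogenous gene. Without either Empty library, or without T7-TIA1 replicate 1, the count was 0. In the KD dataset the intron was at 5.51% and 4.22% in NI, 13.7% and 21.9% in shSCR, and 8.91% to 21.6% in the knockdowns, and rose between NI and shSCR (1.93 ± 0.52 log2, adjusted p = 0.038). It was at 11.3% and 15.8% in OE NI.

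The other short intron of *Tia1* in the set, intron 9, was at 0% to 0.89% in all libraries, and the one of *Hnrnpul1*, intron 9 of 14, at 0% to 0.35%. *Cpsf3* had no short intron in the set. Of the introns past the PSI rule only, *Tssc4* intron 1, in the 5′ UTR, was at 50.7% and 45.6% in Empty and 69.3% and 63.5% in T7-TIA1 (adjusted p = 0.378), and *BC029214* intron 2 at 13.2% and 19.6% against 34.4% and 34.1%. *Slc9a5* intron 6 was at 60.2% and 43.2% against 73.2% and 71.7%, and *Zfp764* intron 1 at 38.8% and 18.9% against 47.7% and 49.6%. Lower in T7-TIA1 were *Slco4a1* intron 8, at 28% and 39.4% against 17.4% and 11.1%, *Ints6l* intron 1, at 48.8% and 51.1% against 31.7% and 30.2%, and *Tmc4* intron 11, at 39.1% and 41.4% against 18.6% and 29.6%. None of these had an adjusted p under 0.05 by the *limma* read test.

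Grouped by function, the called introns of cytosolic ribosomal protein genes mostly fell between NI and shSCR and those of actin and adhesion genes mostly rose, while most introns of both lists were not called. The difference between the lists was not tested. The 150 short introns of 70 ribosomal protein genes were spliced more fully than most, with a median PSI of 0.319%. Of 148 tested, 24 in 21 genes fell and 1 rose, where 1.79% of all short introns tested fell and 4.76% rose. The median difference was −0.35 log2, against 0.18 over all short introns tested. The retained share of their pooled reads was 0.866% and 0.684% in NI and 0.487% and 0.508% in shSCR, with 0.543% to 0.733% in shCPSF3 and 0.492% to 0.720% in shUL1. The falls were small in PSI, with a median absolute ∆PSI of 0.98 among the called introns. Larger differences were seen in introns of 5′ UTRs. *Rpl41* intron 1 was at 70.8% and 69.3% in NI, 46.5% and 39.7% in shSCR, and 54.9% to 66.2% in the knockdowns (shSCR against NI −1.63 ± 0.21 log2, adjusted p = 0.000616). *Rpl27* intron 1 was at 13.9% and 12.3% in NI and 3.54% and 3.14% in shSCR (−2.12 ± 0.26 log2, adjusted p = 0.00045), and *Rps27a* intron 1 at 7.94% and 7.91% against 1.98% and 2.38% (−1.95 log2, adjusted p = 0.000316). None of these 3 introns was called between OE NI and Empty, where *Rpl27* intron 1 was at 12.4% and 9.69% against 9.56% and 12.4% (adjusted p = 0.984), *Rpl41* intron 1 at 64.4% and 65.9% against 53.8% and 56.2% (adjusted p = 0.157), and *Rps27a* intron 1 at 7.28% and 5.69% against 4.19% and 4.49% (adjusted p = 0.212).

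In the knockdowns, called introns of ribosomal protein genes rose against shSCR, 18 of 148 tested in 16 genes with shCPSF3 and 14 of 148 in 13 genes with shUL1, and 0 fell. Of all short introns tested, 0.852% and 0.521% rose. *Rpl41* intron 1 rose by 0.97 log2 (adjusted p = 0.0135) and 1.13 log2 (adjusted p = 0.00951), and *Rpl27* intron 1 by 1.74 log2 (adjusted p = 0.00205) and 1.58 log2 (adjusted p = 0.00495). Expression of the host genes fell in 62 of 67 with shCPSF3 and 2 of 67 with shUL1, against 9.35% and 3.15% of all listed genes, and rose in 17 of 67 between NI and shSCR, against 22.5%. These calls come from fits without the replicate block. The median fold change of the hosts was −0.79 log2 with shCPSF3 and −0.39 log2 with shUL1. Among the OE libraries, 3 of 147 introns of the list rose between NI and Empty and 0 fell, with a median difference of 0.42 log2, against 0.13 over all short introns, and 110 differences above 0. Of 67 hosts there 27 rose, against 22.8% of all listed genes. The retained share there was 0.633% and 0.591% in NI, 0.705% and 0.598% in Empty, and 0.781% and 0.663% in T7-TIA1. Ribosomal protein genes have many processed pseudogenes, which hold spliced sequence, so that the values of these introns are uncertain. With PSI in percent in place of the log ratio, 10 introns of the list fell between NI and shSCR and 2 rose with each knockdown.

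The 224 short introns of 31 genes of the actin cytoskeleton and adhesion had a median PSI of 0.677%. Of 153 tested between shSCR and NI, 23 rose and 1 fell, against 4.76% and 1.79% of all short introns tested, with a median difference of 0.55 log2 against 0.18. Of 29 listed host genes 28 fell, where 22% of all listed genes fell. The intron that fell was intron 1 of *Zyx*, which encodes the focal adhesion protein zyxin. It lies in the 5′ UTR and was at 33.9% and 29.8% in NI and 17% and 12.4% in shSCR (−1.37 log2, adjusted p = 0.00532), while *Zyx* expression fell by 2.27 log2 (adjusted p = 0.000384). The retained share of the pooled reads was 0.954% and 0.853% in NI, 1.40% and 1.20% in shSCR, 1.07% to 1.45% in shCPSF3, and 1.37% to 1.95% in shUL1. In the OE dataset it was 0.736% and 0.975% in NI, 1.25% and 0.824% in Empty, and 1.04% and 0.982% in T7-TIA1, and *limma* called 0 of 127 introns between Empty and NI, with 26 at an unadjusted p under 0.05, while 24 of 29 listed hosts fell, against 23.6% of all listed genes. With PSI in percent, 2 of the introns rose between NI and shSCR and 1 fell, and after centring 15 rose and 1 fell.

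**Figure D4:**
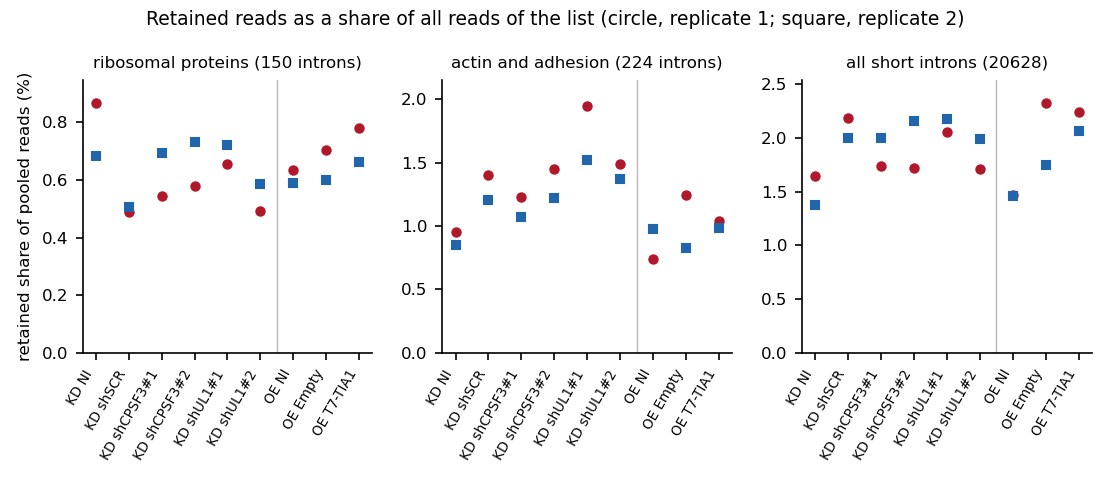
Retained share of the pooled junction reads (%, vertical axis) in each of the 18 libraries, by group along the horizontal axis, for the 150 short introns of ribosomal protein genes, the 224 of actin and adhesion genes, and all 20628. For ribosomal protein genes shSCR (0.487% and 0.508%) lies below NI (0.866% and 0.684%), and for actin and adhesion genes shSCR (1.40% and 1.20%) lies above NI (0.954% and 0.853%).

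Introns of splicing regulators moved in both directions, and their counts are to be read against the 4.76% of all short introns tested that rose and the 1.79% that fell between NI and shSCR, and those of their hosts against the 22.5% and 22% of all listed genes that rose and fell. Of 62 tested introns of hnRNP genes, 6 rose and 1, that of *Hnrnpl*, fell between NI and shSCR. *Hnrnpdl* intron 6 went from 8.62% and 6.39% to 14.6% and 14% (1.05 log2, adjusted p = 0.00568) and *Hnrnpa1* intron 10, in the 3′ UTR, from 8.31% and 5.93% to 14.8% and 11% (0.95 log2, adjusted p = 0.0137), while 6 of 21 hosts fell and 1 rose. Of 24 tested introns of SR protein and SR kinase genes, *Srsf1* intron 3 rose and *Clk1* intron 6 fell. Of 45 tested introns of 20 genes known to host detained introns, 12 rose and 1 fell, and 10 of the 20 hosts rose, but after centring 2 of the introns rose and 3 fell. *Pnisr* intron 11, the last one of the gene of an SR-related protein, was at 26.8% and 27.6% in NI and 45% and 41.4% in shSCR (adjusted p = 0.0546). Of 105 tested introns of core spliceosome genes, 1 rose and 2 fell. One of these was *Prpf40b* intron 20, at 26.2% and 30% in NI and 14.8% and 13.7% in shSCR (−1.23 log2, adjusted p = 0.0487), while *Prpf40b* expression rose by 1.37 log2 (adjusted p = 0.000367).

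Host gene expression changed widely, and its relation to short intron retention was weak across genes. Of the 5860 host genes, 5235 were listed in the KD expression table and 5268 in the OE table. Between shSCR and NI, 1198 hosts rose and 1107 fell (*limma* on log2 of scaled CPM, adjusted p under 0.05), against 22.5% and 22% of all listed genes. In the other comparisons, 1270 hosts rose and 1140 fell between Empty and NI (22.8% and 23.6% of all genes), 806 rose and 531 fell with shCPSF3 (16.7% and 9.35%), and 325 rose and 182 fell with shUL1 (7.31% and 3.15%). Between T7-TIA1 and Empty *limma* called 0 of 5268 hosts and 0% of all genes, with 184 hosts at an unadjusted p under 0.05. *Tia1* itself, higher by 2.71 log2, was not called (adjusted p = 0.222), so that this test missed the overexpressed gene. The count of 0 therefore does not show that expression was unchanged. Without 1 library these counts moved strongly: between shSCR and NI 2305 became 1433 without NI replicate 1 and 1501 without NI replicate 2, between Empty and NI 2410 became 795 and 1183 without Empty replicates 1 and 2, with shCPSF3 1337 became 285 without shSCR replicate 2 and 804 without shCPSF3#2 replicate 1. With shUL1, 507 became 92 and 65 without shSCR replicates 1 and 2, 148 without shUL1#1 replicate 1, and 115 and 254 without shUL1#2 replicates 1 and 2. With the replicate number as a block, 1285 hosts rose and 1269 fell with shCPSF3 and 752 rose and 743 fell with shUL1. The balance of rises and falls also depended on the scaling of expression. With the libraries rescaled to equal sums, 1352 hosts rose and 807 fell between shSCR and NI, and 1855 rose and 775 fell between Empty and NI. With shCPSF3, 571 rose and 565 fell in that setting, and with shUL1 261 rose and 146 fell.

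Across host genes, the differences in retention and in expression were nearly unrelated. Pearson's r between the mean ∆PSI of a host's short introns and its log2 fold change was −0.08 for shSCR against NI (5235 genes), −0.06 for Empty against NI (5268 genes), −0.08 for shCPSF3, −0.05 for shUL1, and −0.01 for T7-TIA1. Restricted to hosts of introns past the PSI rule, r was −0.08 (219 genes), −0.04 (119), −0.14 (65), 0.10 (50), and −0.22 (27). Over hosts of introns called by reads, it was −0.15 for shSCR against NI (518 genes) and −0.09 for Empty against NI (36). For shCPSF3 it was −0.09 (153) and for shUL1 0.19 (66). Spearman's rho over all hosts was −0.0989, −0.0775, −0.165, −0.105, and −0.0292, and over hosts past the rule −0.0897, −0.0529, −0.0452, 0.218, and 0.0580, so that the sign for shUL1 turned by both measures and that for T7-TIA1 by Spearman's alone. These are correlations across genes, which are not independent replicates, and both measures come from the same libraries. Retention was lowest among the hosts of highest expression in every library. With expression taken per exonic kilobase, Spearman's rho ranged from −0.15 to −0.07, and with the hosts in 4 equal groups by expression, the median PSI was 1.02% to 1.5% in the group of lowest expression, 1.21% to 1.75% in the second, 0.929% to 1.69% in the third, and 0.504% to 0.879% in the highest. In the 4 NI libraries the group of lowest expression had the highest median, and in the day 12 libraries the second group lay above it.

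Among introns called by reads, more hosts of rises fell than rose between NI and shSCR, and more hosts of falls rose than fell. The 548 introns that rose lay in 391 genes, of which 378 were listed, and 39 of these rose (10.3%) and 132 fell (34.9%), with a median log2 fold change of −0.30. The 206 introns that fell had 147 listed hosts, of which 43 rose (29.3%) and 18 fell (12.2%), with a median of 0.37. Of all listed genes 22.5% rose and 22% fell. With expression rescaled so that the libraries had equal sums, the hosts of rises were 46 up and 106 down and those of falls 46 up and 14 down. With the read ratios centred, they were 11 up and 62 down against 101 up and 34 down. With PSI in percent and rescaled expression the lean of the rises was lost, at 38 up and 37 down. By the PSI rule, 42 hosts of introns with higher retention rose and 18 fell of 116, with 56 not called, and 46 hosts of introns with lower retention rose and 17 fell of 108, with 45 not called.

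With shCPSF3, 86 listed hosts of introns that rose included 7 that rose (8.14%) and 26 that fell (30.2%), with a median of −0.34 log2, and 68 hosts of introns that fell included 10 that rose (14.7%) and 1 that fell (1.47%), with a median of 0.09 log2, where 16.7% of all listed genes rose and 9.35% fell. By the PSI rule the hosts of higher retention did not lean this way, with 7 that rose and 3 that fell of 37 and a median of 0.05 log2, and of 30 hosts of lower retention 11 rose and 4 fell. With PSI in percent, 39 hosts of rises included 4 that rose and 4 that fell. With shUL1, 49 hosts of rises included 1 that rose and 5 that fell, against 7.31% and 3.15% of all listed genes. With Empty against NI, 25 hosts of rises included 5 that rose and 5 that fell, and 11 hosts of falls 4 that rose and 2 that fell, against 22.8% and 23.6%. Spliced reads enter both the retention ratio and the expression value, so the 2 measures are not independent. For the 548 rises between NI and shSCR, the median change was 1.18 log2 in retained reads and −0.34 log2 in spliced reads, and in 338 of them retained reads were higher and spliced reads lower, in 170 both were higher, and in 40 both were lower. For the 206 falls the medians were −0.75 and 0.76 log2. For the 98 rises with shCPSF3 they were 0.81 and −0.69 log2, for the 83 falls −1.16 and 0.17, for the 60 rises with shUL1 0.93 and −0.46, and for the 19 falls −1.11 and 0.18. Between Empty and NI they were 1.78 and −0.06 log2 for the 29 rises and −0.15 and 1.17 for the 17 falls.

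**Figure D5:**
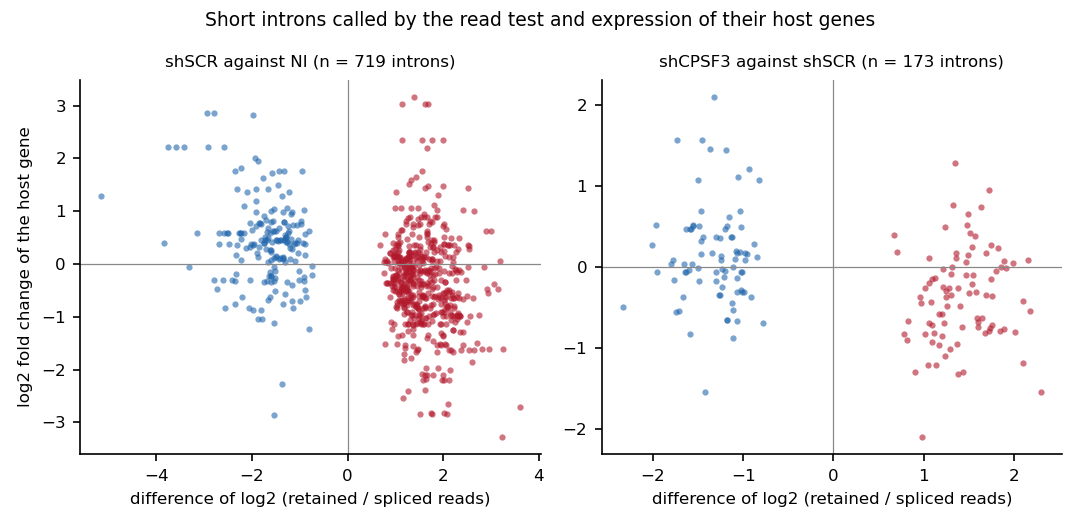
Difference in log2 (retained / spliced reads) of the short introns called by reads (horizontal axis) and log2 fold change of the host gene's expression (vertical axis); each point is 1 intron with a listed host, 719 for shSCR against NI and 173 for shCPSF3 against shSCR. Over the listed host genes, each counted once, the median change was −0.30 and −0.34 for points to the right (rises) and 0.37 and 0.09 for points to the left (falls).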

How the data were processed

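Paired stranded polyA RNA-seq reads of 18 libraries, 2 per group, were the source of all values. For splicing, the authors ran *vast-tools* strand-specifically against mm10, and the deposited table gives the PSI of all annotated events in percent, with a text of the coverage score and the corrected inclusion and exclusion reads. The authors mapped reads with *STAR* 2.7.1a, obtained CPM with *edgeR* 3.16.5, and kept genes with at least 5 CPM in 33% of the samples and a coefficient of variation of at least 0.2. The deposited expression values are a signal, CPM scaled for each library, in 1 table per dataset, where unscaled CPM had been planned for. Depth is given by the reads per intron. At 10 reads the counting error of PSI is wide, and the PSI rule does not weigh it.

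Introns were retention events of at most 300 nt with a coverage score other than N, which stands for at least 10 reads, in all libraries. Samples were grouped by the titles. The read-level test was *limma* 3.58.1 (R 4.3.3, robust) on log2 of (inclusion + 1) over (exclusion + 1) reads, weighted by the inverse of the counting variance from the pooled share plus 0.04. It took events of all types with at least 30 inclusion and 30 exclusion reads over the libraries of a dataset, in 1 fit per dataset, two-sided, with Benjamini-Hochberg adjustment over all of them. The weights and this minimum were changed from an earlier setting after calls under it had been seen, because simulated data were not recovered under it. Expression was tested with *limma* (trend) on log2 (scaled CPM + 1), a scale that understates changes of low genes, in 1 fit per dataset. Knockdown effects are the mean of both shRNAs against shSCR. The read-level test and the expression test were tried on simulated data, and the PSI rule on made-up values. The other steps were not tested in this way. Alternatives changed the PSI rule, length limit, weights, pseudocounts, centring, features and groups fitted, replicate block, and libraries.

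The members and gene lists were chosen with earlier results of these data known. Introns named were 8 of those with the highest mean PSI, with ties taken in order of their identifiers. Per comparison, up to 4 rises and 4 falls with the largest ∆PSI were taken among introns called by reads. These needed a ∆PSI of at least 5 and no overlap between the libraries compared, and missing ones were filled from introns past the PSI rule. Introns of *Cpsf3*, *Hnrnpul1*, and *Tia1* were also named, with up to 4 past the PSI rule in both datasets. Up to 3 per gene list were those with the largest difference between shSCR and NI. *Thoc6*, *Brd2*, *Per1* as a gene, and *Lrrc45* were added after their values were seen. The 18 libraries were compared with each other, and replicates correlated at 0.959 to 0.967 with at most 0.398% of introns at identical reads, so none was counted as a duplicate. Pairs from different groups correlated at 0.911 to 0.974, so that some libraries were closer to a library of another group than to their own replicate. The labels do not say what a replicate number marks. Among the day 12 groups of the KD dataset, deviations of libraries with the same number from their group means correlated at 0.147 to 0.310 across introns and 0.674 to 0.949 across genes, and fits with the number as a block are given beside the knockdown counts that they moved by over 1.5 times. Gene structure and intron sequences came from GENCODE M21, handled with pandas 2.3.3, NumPy 2.4.6, SciPy 1.17.1, and matplotlib 3.10.9 under Python 3.11.15.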

Additional observations from a re-analysis of the deposited data

Results flagged for a closer look

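*Lrrc45* intron 9 of 17 (134 nt, in coding sequence, chr11:120717903-120718036, plus strand), of a centrosomal protein gene, was the only one of the 80 short introns past the PSI rule in both datasets that moved in opposite directions. Its PSI was 9.92% and 9.43% in KD NI and 24.1% and 24.5% in shSCR, a difference of 14.63. In the OE dataset it was 25.4% and 20.6% in NI, 10.2% and 12.2% in Empty, and 8.87% and 11.3% in T7-TIA1, a difference of −11.795 between Empty and NI. Both day 12 libraries moved one way in the KD dataset and the other way in the OE dataset, on 203 to 360 reads per library. By the read test with *limma*, the differences were 1.53 ± 0.27 log2 (adjusted p = 0.00448) and −1.21 ± 0.32 log2 (adjusted p = 0.108), and the difference between the datasets itself was not tested. *Lrrc45* expression differed by 0.16 log2 (adjusted p = 0.377) and 0.09 log2 (adjusted p = 0.577). The NI groups, both labelled as day 0 by their titles, stood apart at this intron.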

How the results depend on the processing

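Many counts moved. Of 943 alternative values of the read test for 74 pairs of a named intron and a comparison that called or chose it, 749 stayed on the same side of the threshold, 194 lost the call, and 0 changed direction. By the PSI rule, the counts in the order shSCR against NI, Empty against NI, shCPSF3, shUL1, and T7-TIA1 were 140, 65, 41, 25, and 11 at a difference of at least 15. At most 200 nt gave 210, 108, 39 for shUL1, and 24 for T7-TIA1, and no minimum gap gave 154 for shCPSF3 and 120 for shUL1. With 1 replicate left out, which leaves values of single libraries, they were 448 to 490, 210 to 516, 205 to 253, 154 to 206, and 146 to 164. The 80 introns past the rule in both datasets became 34, 51, and 126 at 15, at 200 nt, and without the gap, and 91 to 176 without 1 replicate.

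By the read test, introns fitted alone gave 1281, 186, 396, 151, and 2, and only the compared groups gave 457, 27, 32 for shUL1, and 0 for T7-TIA1. PSI in percent gave 437, 1, 52 for shUL1, and 0 for T7-TIA1. Adding 0.5 read gave 47 for shUL1 and 0 for T7-TIA1, and centring gave 0 for T7-TIA1. The earlier weights and minimum of 10 reads, an alternative added after the data were seen like the centring, gave 125 for Empty against NI, 404 for shCPSF3 (133 rose, 271 fell), 151 for shUL1 (67 rose, 84 fell), and 2 for T7-TIA1. Leaving out 1 library gave 200 to 435, 5 to 57, 33 to 175, 13 to 51, and 0 to 1, where a lone library is assumed to vary like the other groups.

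With a replicate block, 109 introns were called for Empty against NI, 301 for shCPSF3, and 2 for T7-TIA1, and 2554 hosts for shCPSF3 and 1495 for shUL1. Deviations of libraries with the same number correlated at 0.147 to 0.310 across introns and 0.674 to 0.949 across genes among the day 12 groups of the KD dataset, and at −0.0465 to 0.0649 across introns between its NI and day 12 groups. Those of Empty and T7-TIA1 in the OE dataset correlated at 0.234 across introns and 0.186 across genes. With 2 numbers per group, fits without the block were kept as the main ones.

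Host calls in the compared groups only were 148 for shCPSF3, 55 for shUL1, and 1 for T7-TIA1. Without 1 library they were 1433 to 1843 for shSCR, 795 to 3372 for Empty, 285 to 1754 for shCPSF3, and 65 to 356 for shUL1. The correlation of retention and expression became −0.041, −0.14, 0.10, and −0.22 for the last 4 comparisons among hosts of introns past the PSI rule. A count test on reads recovered from the expression values was not run. The causes of these shifts were not tested. With 2 libraries per group and 10 to 30 reads at the low end, small changes of weakly covered introns were not detectable.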

Other observations

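Of 101 tested introns of DNA replication and mitosis genes, 4 rose and 2 fell between NI and shSCR, near the 4.76% and 1.79% of all short introns tested, and the median difference was 0.09 log2 against 0.18. *Bub1* intron 7, in the gene of a mitotic checkpoint kinase, was at 2.06% and 0.57% in NI and 7.2% and 7.83% in shSCR (2.33 log2, *limma*, adjusted p = 0.008). *Cdt1* intron 4, in the gene of a replication licensing factor, was at 19.1% and 12.4% in NI and 8.97% and 8.04% in shSCR (adjusted p = 0.095). Between Empty and NI, 1 of 88 rose, against 0.333% of all short introns tested, while 18 of 43 host genes rose, against 22.8% of all listed genes. Of 55 tested introns of cleavage, polyadenylation, and Integrator genes, 1 rose between NI and shSCR, *Ints13* intron 17, from 4.1% and 3.95% to 9.57% and 10.1% (1.31 log2, adjusted p = 0.022).

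The 84 short introns of 8 fibroblast marker genes had a median PSI of 0.09%, and *limma* called 0 of 52 tested between shSCR and NI, with 7 at an unadjusted p under 0.05, while 4 of the 8 genes fell, against 22% of all listed genes. The median difference of these introns was 0.76 log2 for shSCR against NI, where all short introns had 0.18, and −0.85 for shCPSF3 and −0.59 for shUL1, where all had −0.09 and −0.05. *Col1a1* intron 45, in a collagen gene, was at 0.38% and 0.21% in NI and 1.24% and 0.94% in shSCR (1.98 log2, adjusted p = 0.17), while *Col1a1* expression fell by 2.30 log2 (adjusted p = 0.000811). The 364 short introns of 37 collagen and matrix genes had a median PSI of 0.123%. By *limma*, 4 of 135 tested rose between NI and shSCR and 0 fell, against 4.76% and 1.79% of all short introns tested, with 23 at an unadjusted p under 0.05. After centring, 1 rose and 3 fell. The median difference of these introns was 0.45 log2 for shSCR against NI, −0.67 for shCPSF3, and −0.34 for shUL1, where all short introns had 0.18, −0.09, and −0.05. Of their 37 listed hosts, 16 fell and 2 rose between NI and shSCR, against 22% and 22.5% of all listed genes, and 22 rose with shCPSF3, against 16.7%. Of 4 tested introns of the epithelial markers *limma* called 0, also 0 at an unadjusted p under 0.05, and *Krt18* intron 2, in a keratin gene, was at 1.32% and 1.89% in NI and 2.79% and 2.92% in shSCR, while *Krt18* expression rose by 3.93 log2 (adjusted p = 0.00342).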
